A study of Cuscuta campestris with 9 samples.

Results

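Dcp-treated and untreated RNA of dodder haustoria were compared over 106 of the 716 short RNA loci in the table. A locus was 1 interval for a small nuclear RNA (snRNA) or a microRNA primary transcript, and 1 tRNA gene, with the counts of all its intervals summed, for a precursor tRNA. The 106 loci were those with at least 10 counts summed over the 3 Dcp and 3 untreated libraries. They comprised 16 of 94 snRNA loci, 64 of 496 tRNA genes and 26 of 126 microRNA loci.

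Both groups held total RNA of the wild-type strain "Dotti" of Cuscuta campestris, a parasitic plant. Cut shoot tips had formed haustoria, the organs that enter a host, without any host, over 4 days of far-red light and pressure on agar. Each of 3 RNA samples gave 1 Dcp library, made after incubation with a decapping enzyme, and 1 untreated library, made with no enzyme. Each RNA sample also gave an RppH library, used here only in 1 alternative fit and beside the loci under the count minimum. Nothing in the labels ties the RNA samples to separate batches of plants, so p-values reflect only the spread between libraries, which may be technical. The table lists no messenger RNA, so the haustorial label was not checked against marker genes.

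A decapping enzyme removes the cap of an RNA and leaves a 5′ monophosphate. The library protocol ligates only such ends, so an intact cap or a triphosphate keeps an RNA out of the untreated libraries. Transcripts of RNA polymerase II are capped, among them the spliceosomal snRNAs U1, U2, U4 and U5, a class that the table's own category name already calls capped. RNA polymerase III starts tRNA precursors with a triphosphate, and RNase P then cuts off their 5′ leader and leaves a monophosphate. Plant microRNA precursors are in general polymerase II products, cut out of a longer transcript by a Dicer-like nuclease. Whether this holds for the microRNA loci listed here, which are described as primary transcripts, was not tested.

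Library totals were 25660226, 40828047 and 29011242 in Dcp libraries 1 to 3, against 41321715, 46034864 and 26426312 in untreated libraries 1 to 3. The sources used here do not state what these totals count, and every TPM and fold change rests on them. The listed loci held 10843 to 18369 counts in Dcp libraries and 630 to 1011 in untreated libraries. Each count was 1 full-length transcript, and TPM, the authors' depth-scaled unit, is proportional to the count within a library and not scaled by length. Levels of different loci are therefore compared per transcript. A count of 3 summed over a group, the floor used for bounds, was worth 0.0314 TPM in the Dcp group and 0.0264 TPM in the untreated group. Counts were not known to be independent molecules, so all counting intervals and floors cover counting error only. Each bound written as at least N-fold sets the Dcp counts as measured against the untreated floor. It leaves out the counting error of the Dcp counts, and the exact 95% lower limit of the ratio is smaller, for example 172 for the U1 copy on scaffold 102 and 5.24 for scaffold43.tRNA7-LeuCAA.

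Every locus called as changed rose. Of the 106 loci, 37 (34.9%) rose after Dcp and 0 (0%) fell (edgeR quasi-likelihood test, Benjamini-Hochberg adjusted p under 0.05). At an unadjusted p under 0.05, 54 loci were higher and 0 lower, and DESeq2 called 33 higher and 0 lower. The risers were 15 of 16 snRNA loci, 16 of 26 microRNA loci and 6 of 64 tRNA genes. By the separate criterion that all 3 Dcp libraries exceed all 3 untreated ones, 38 loci (35.8%) stood apart, namely 15 snRNA loci, 15 microRNA loci and 8 tRNA genes, and 0 did so downward.

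The count minimum partly fixes these shares, because 84 loci reached it within the Dcp libraries alone and 36 had 0 untreated counts. Among the 26 loci that reached 10 counts in the untreated libraries by themselves, 5 rose, namely 2 of 2 snRNA loci, 2 of 4 microRNA loci and 1 of 20 tRNA genes. The median log2 ratio of pooled rates, with loci at 0 untreated counts set to their bound, was 5.51 for snRNA, 3.22 for microRNA and 1.25 for tRNA genes, beside 2.19 over all 106 loci. The bound stood in for 11 of 16 snRNA loci, 14 of 26 microRNA loci and 11 of 64 tRNA genes. The snRNA and microRNA medians thus rest largely on lower bounds. All these ratios are relative to the library totals. Factors computed from the listed loci themselves lower the Dcp libraries against the untreated ones by a group mean of 0.72 (log2) with TMM and of 1.29 with median-of-ratios scaling, which rests on the 23 loci counted in all 6 libraries. The median fitted log2 fold change of the 106 loci was 2.77 with library totals, 2.05 with TMM and 1.30 with median-of-ratios scaling, and the shift of single loci varied around this. Under either scaling 23 loci rose at the adjusted threshold, 13 snRNA, 10 microRNA and 0 tRNA loci, and 0 fell. At an unadjusted edgeR p under 0.05, 37 loci were higher and 0 lower with TMM. With median-of-ratios scaling 31 were higher and 3 lower by that criterion.

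**Figure D1:**
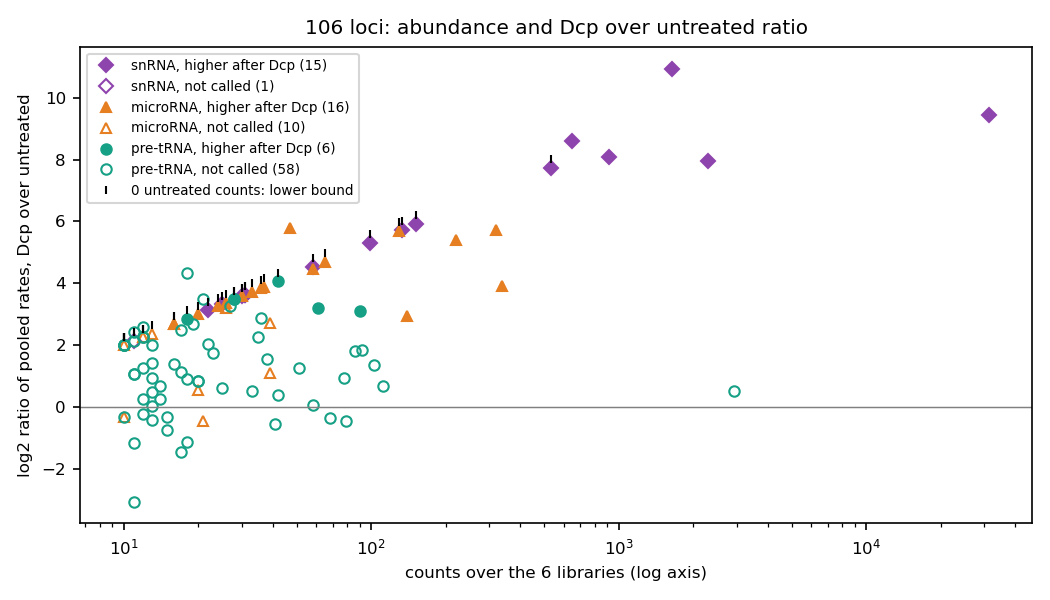
Each point is 1 of the 106 loci, with its counts over the 6 libraries on a log x axis and the log2 ratio of pooled rates, Dcp over untreated, on the y axis. Filled points rose after Dcp (15 snRNA, 16 microRNA and 6 pre-tRNA loci), and a bar over a point marks 0 untreated counts, where the ratio is a lower bound.

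The snRNAs were the bulk of the listed RNA after Dcp and a trace of it in untreated RNA. They made up 88.2 ± 2.09% of listed counts in Dcp libraries and 2.98 ± 1.02% in untreated libraries (SD, n = 3 each). Precursor tRNAs made up 7.82 ± 0.566% in Dcp libraries and 91.8 ± 2.15% in untreated libraries. MicroRNA transcripts held a similar share of both, 3.95 ± 1.75% in Dcp libraries and 5.26 ± 1.13% in untreated libraries, although their TPM was higher after Dcp.

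Class totals were higher after Dcp in each RNA sample. For snRNA, Dcp over untreated was 469, 1403 and 496 in RNA samples 1 to 3. For microRNA transcripts it was 17.9, 33.7 and 6.29, and for precursor tRNAs 2.08, 2.53 and 1.30. RNA sample 3 thus gave the smallest ratio for microRNA transcripts and for precursor tRNAs. No total overlapped between groups, and each exact two-sided permutation p was 0.1, the smallest that 3 against 3 libraries allow.

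The gains also differed between classes when set against each other within a library, a measure that needs no library total. The mean log2 ratio of snRNA to precursor tRNA counts was 3.50 ± 0.128 in Dcp libraries and −5.00 ± 0.538 in untreated libraries, a difference of 8.50. For microRNA to precursor tRNA it was −1.10 ± 0.732 in Dcp libraries and −4.14 ± 0.335 in untreated libraries, a difference of 3.04. For snRNA to microRNA it was 4.60 ± 0.801 in Dcp libraries and −0.86 ± 0.220 in untreated libraries, a difference of 5.46 (SD, n = 3 each throughout). None of the 3 ratios overlapped between groups, and each exact two-sided permutation p was again 0.1. Over these 3 ratios and the 3 class totals, the Benjamini-Hochberg adjustment leaves 0.1 unchanged.

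**Figure D2:**
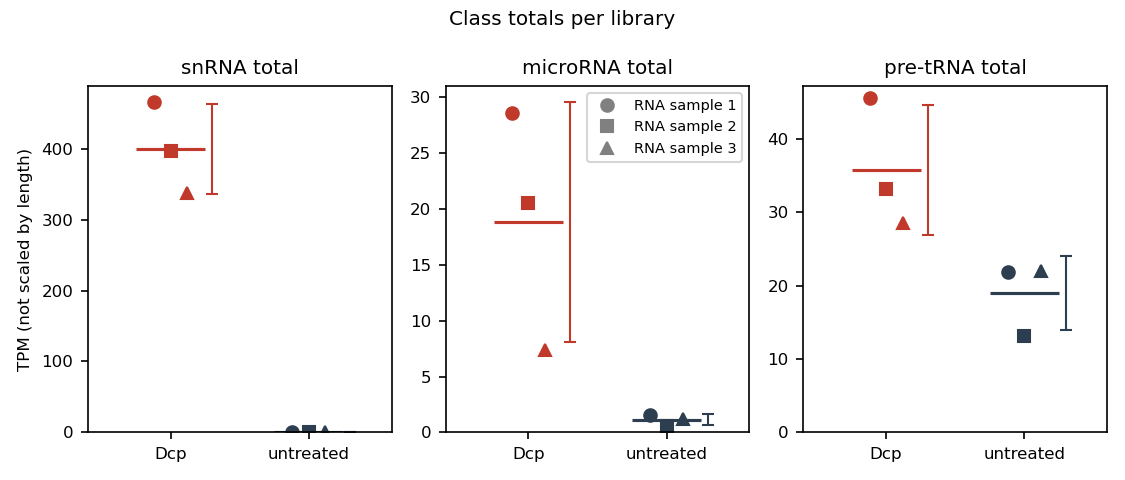
Summed TPM of each class per library, with the mean as a line and the SD as a bar (n = 3 libraries per group), Dcp left of untreated. The 3 panels have separate y axes from 0: snRNA averaged 400 TPM after Dcp and 0.652 TPM untreated, microRNA 18.8 TPM after Dcp and 1.13 TPM untreated, and pre-tRNA 35.8 TPM after Dcp and 19.0 TPM untreated.

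U1 snRNA, which pairs with the 5′ splice site, supplied most of the listed counts in Dcp libraries. Its 43 listed copies, 7 of them among the 106 loci, summed to 408, 350 and 304 TPM in Dcp libraries, against 0.750, 0.282 and 0.606 TPM in untreated libraries. The pooled ratio was 666 (95% exact interval for counting error 518 to 873). A single copy on scaffold 1 (2523679 to 2523838, plus strand, 160 nt) held 92.0, 94.4 and 92.8% of the U1 counts in Dcp libraries. The sources used here do not state how reads from near-identical copies were divided, so the split among U1, U2 or tRNA copies is uncertain.

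That copy had 375, 330 and 282 TPM in Dcp libraries, against 0.653, 0.239 and 0.606 TPM in untreated libraries. Every Dcp value lay far above every untreated one, with a log2 fold change of 9.37 (SE 0.814, adjusted p = 1.41e-15 in edgeR). A second copy on scaffold 1 (2337806 to 2337965, plus strand) had 194, 249 and 205 counts in Dcp libraries and 0, 2 and 0 in untreated libraries, a ratio of 386 (interval 106 to 3194, adjusted p = 2.81e-10). A copy on scaffold 29 (739741 to 739898, plus strand) had 381, 302 and 224 counts in Dcp libraries and 4, 0 and 0 in untreated libraries, a ratio of 270 (interval 105 to 994, adjusted p = 2.81e-10). Neither copy overlapped between groups.

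The remaining U1 copies had 0 untreated counts. The scaffold 102 copy (848650 to 848807, plus strand) had 212, 186 and 137 counts in Dcp libraries, at least 213-fold more than untreated (adjusted p = 7.1e-11). Another 3 copies lay on the plus strand of scaffold 249. Copy a (138403 to 138561) had 23, 34 and 42 Dcp counts and was at least 39.3-fold higher, and copy b (154004 to 154161) had 12, 22 and 24 Dcp counts and was at least 23.0-fold higher (adjusted p = 1.25e-06 and 3.09e-05). Copy c (164562 to 164720) had 9, 2 and 0 Dcp counts and was the sole tested snRNA locus that missed the threshold (adjusted p = 0.0694). It is also the tested snRNA locus with the fewest counts, 11.

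U2, which pairs with the branch point, came from 3 of 16 listed copies, and the type total was 41.6 ± 10.5 TPM in Dcp libraries and 0.106 ± 0.124 TPM in untreated libraries (SD, n = 3 each). The scaffold 79 copy (315044 to 315239, plus strand) had 29.97, 24.9 and 17.1 TPM in Dcp libraries, against 0.242, 0 and 0.0378 TPM in untreated libraries. Its log2 fold change was 7.92 (SE 0.921, adjusted p = 6.55e-11). The scaffold 29 copy (734845 to 735040, plus strand) had 21.2, 17.7 and 13.2 TPM in Dcp libraries, against 0, 0 and 0.0378 TPM, which is 1 count, in untreated libraries. Its pooled ratio of 1964 therefore has an interval of 352 to 77600 (adjusted p = 8.28e-13). The copy on scaffold 23 (1038593 to 1038787, plus strand) had 8, 17 and 5 Dcp counts and 0 untreated counts, at least 11.9-fold more (adjusted p = 0.00216). All 3 U2 copies were lowest in Dcp library 3.

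U4, which reaches the spliceosome base-paired to U6, had 370 counts over 9 of its 13 listed copies in Dcp libraries and 0 in untreated libraries, at least 147-fold more. Its 5 tested copies all rose. The scaffold 99 copy (530255 to 530388, minus strand) had 2.03, 1.57 and 1.24 TPM in Dcp libraries and was at least 60.4-fold higher (adjusted p = 1.46e-07). The scaffold 12 copy (1865644 to 1865777, plus strand) had 1.68, 1.30 and 1.27 TPM and was at least 52.8-fold higher (adjusted p = 2.78e-07). Copies a (1045326 to 1045464, plus strand) and b (878570 to 878708, minus strand) on scaffold 23 and the copy on scaffold 346 (49803 to 49941, plus strand) had 22 to 31 Dcp counts and adjusted p-values of 0.00134 to 0.00511. The scaffold 346 copy took 16 of its 22 counts from Dcp library 1.

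U5, which holds the exon ends together, was the least recovered type. Of 22 listed copies 1 was tested, on scaffold 31 (1025204 to 1025317, minus strand, 114 nt). It had 23, 7 and 1 counts in Dcp libraries and 0 in untreated libraries, at least 12.3-fold more (adjusted p = 0.00126). The Dcp libraries themselves spread from 0.896 TPM in library 1 to 0.0345 TPM in library 3, so its level after Dcp is known only loosely.

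**Figure D3:**
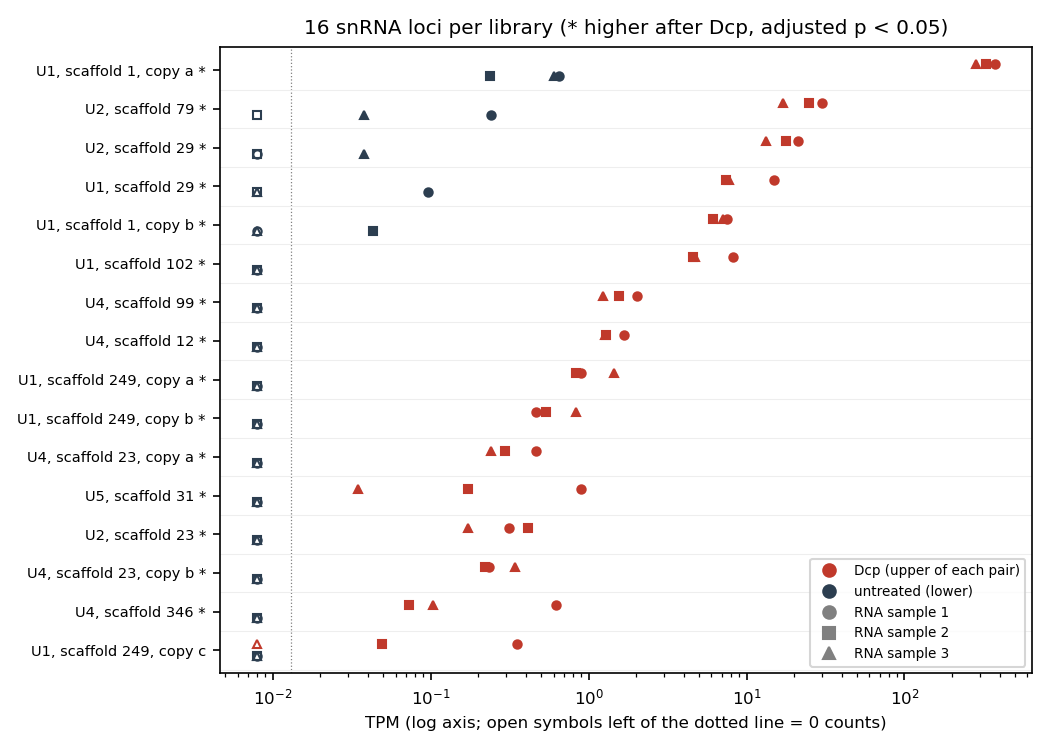
TPM of the 16 snRNA loci in each library on a log axis, Dcp in the upper line and untreated in the lower line of each pair, with 1 symbol per RNA sample and open symbols left of the dotted line for 0 counts. The Dcp symbols with counts run from 375 TPM for the dominant U1 copy to 0.0345 TPM for U5. Copy c of U1 on scaffold 249 has 0 counts in Dcp library 3, and 11 of the 16 loci have 0 counts in every untreated library.

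Among microRNA loci, 16 of 26 rose after Dcp and 0 fell. MicroRNAs are short RNAs that repress transcripts they pair with. The listed loci were intervals of 117 to 183 nt among the 26 tested, described in the table as primary transcripts induced at the host interface. Of the IIM loci 9 of 13 rose, and of the MIR loci 7 of 13. Of loci whose name ends in a family letter 9 of 12 rose, and of the others 7 of 14, beside 34.9% over all tested loci. Whether these lists differ was not tested.

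The most abundant microRNA transcript was ccm-MIR12463b (scaffold 7, 1050575 to 1050710, plus strand). It had 6.12, 2.92 and 1.27 TPM in Dcp libraries, against 0.411, 0.0869 and 0.151 TPM in untreated libraries. The groups did not overlap, although the Dcp libraries were widely spread, at 3.44 ± 2.46 TPM (SD, n = 3). The log2 fold change was 3.96 (SE 0.846, adjusted p = 0.000101). On the same scaffold and strand, ccm-IIM-12a (1280002 to 1280148) had 5.26, 3.75 and 0.827 TPM in Dcp libraries, against 0.0484, 0.109 and 0 TPM in untreated libraries. Its log2 fold change was larger, 5.75 (SE 0.969, adjusted p = 1.17e-06), and both loci had their lowest Dcp value in library 3.

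A further pair of transcripts had a high level after Dcp and at most 6 untreated counts. Dcp libraries had for ccm-IIM-27 (1788882 to 1789031 of scaffold 29, minus strand) 2.73, 3.09 and 0.620 TPM against 0, 0 and 0.227 TPM in untreated libraries, a log2 fold change of 4.99 (SE 1.03, adjusted p = 6.26e-05). All 6 untreated counts came from library 3. For ccm-IIM-93 (scaffold 161a, 625379 to 625528, minus strand) Dcp libraries had 1.99, 1.18 and 1.07 TPM and untreated libraries 0 counts, at least 51.6-fold more (adjusted p = 2.78e-07). All 3 Dcp libraries counted it, with 51, 48 and 31 counts.

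The locus ccm-IIM-70 (scaffold 190a, 485233 to 485375, plus strand) was called without separation of the groups. Dcp libraries had 1.44, 2.01 and 0.0689 TPM, against 0.194, 0.130 and 0.189 TPM in untreated libraries. Dcp library 3 lay below every untreated library, so the locus was higher in 2 of 3 RNA samples. The log2 fold change was 2.77 (SE 0.911, adjusted p = 0.0110), and the adjusted p was 0.204 once the RNA sample was a block.

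Several called loci shared a scaffold and strand. On the minus strand of scaffold 59, ccm-MIR12490b (1863192 to 1863338) had 23, 17 and 25 counts in Dcp libraries and 0 in untreated libraries, at least 25.8-fold more (adjusted p = 1.07e-05). Its neighbour ccm-MIR12490a (1855117 to 1855263) had 19, 24 and 3 counts in Dcp libraries and 1, 0 and 0 in untreated libraries, a ratio of 54.8 (interval 9.36 to 2211, adjusted p = 0.00107). The 2 loci have the same length, 147 nt, yet in Dcp library 3 the first had 25 counts and the second 3. Also on that strand, ccm-IIM-39 (1824956 to 1825102) had 11, 16 and 3 Dcp counts and 0 untreated counts, at least 11.9-fold more (adjusted p = 0.00207).

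On the minus strand of scaffold 83, ccm-IIM-83 (870060 to 870207) had 37, 16 and 2 counts in Dcp libraries and 0, 3 and 0 in untreated libraries. The ratio was 21.8 (interval 7.09 to 109, adjusted p = 0.0014). Beside it, ccm-IIM-102 (868627 to 868743) had 11, 3 and 2 Dcp counts and 0 untreated counts, at least 6.35-fold more (adjusted p = 0.0216; 0.0975 with the RNA sample as a block). Both were highest in Dcp library 1.

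Another 3 loci with 0 untreated counts were counted in every Dcp library. They were ccm-MIR12465b (14, 16 and 6 Dcp counts; scaffold 79, 376886 to 377030), ccm-IIM-63b (17, 9 and 7; scaffold 30, 3544487 to 3544643) and ccm-MIR12473a (8, 11 and 7; scaffold 191, 522952 to 523101). The bounds were at least 14.3-fold for ccm-MIR12465b, 13.1-fold for ccm-IIM-63b and 10.3-fold for ccm-MIR12473a, all on the plus strand, with adjusted p-values of 0.000717, 0.000854 and 0.00363. The Dcp libraries were close together for ccm-MIR12473a, at 0.274 ± 0.0355 TPM (SD, n = 3).

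Another 3 calls lacked counts in at least 1 Dcp library. For ccm-MIR12497d (scaffold 13b, 582372 to 582537, plus strand) the Dcp counts were 6, 31 and 0 (adjusted p = 0.00192). For ccm-MIR12465c (scaffold 99, 713750 to 713894, minus strand) they were 12, 8 and 0 (adjusted p = 0.0138; 0.0571 with the RNA sample as a block). All 24 counts of ccm-IIM-51 (scaffold 110, 566269 to 566405, minus strand) came from Dcp library 2 (adjusted p = 0.0214; 0.197 with the block). That last call thus rests on 1 library, and without that library the locus had 0 counts.

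The other 10 microRNA loci did not pass the threshold, and several are named here after their values were seen. In 3 of them, ccm-MIR12481, ccm-MIR12467 and ccm-MIR12494b, all Dcp libraries exceeded all untreated ones (adjusted p = 0.0738, 0.0738 and 0.053). For ccm-MIR12481 the values were 0.468, 0.416 and 0.138 TPM in Dcp libraries and 0.0726, 0.0217 and 0.0757 TPM in untreated libraries. The groups overlapped in the others named here. The overlapping loci ccm-MIR12497a and ccm-MIR12497b, which share 107 nt of scaffold 13b and are uncertain for that reason, had 8 and 11 counts in Dcp libraries and 13 and 9 in untreated libraries. ccm-IIM-50 had 6, 14 and 5 Dcp counts and 10, 1 and 3 untreated counts (ratio 2.13, interval 1.06 to 4.43, adjusted p = 0.544). ccm-IIM-29 had 1, 2 and 1 Dcp counts and 0, 2 and 4 untreated counts (ratio 0.794, interval 0.165 to 3.35, adjusted p = 0.873). These intervals are wide, so no likeness of the groups is shown.

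**Figure D4:**
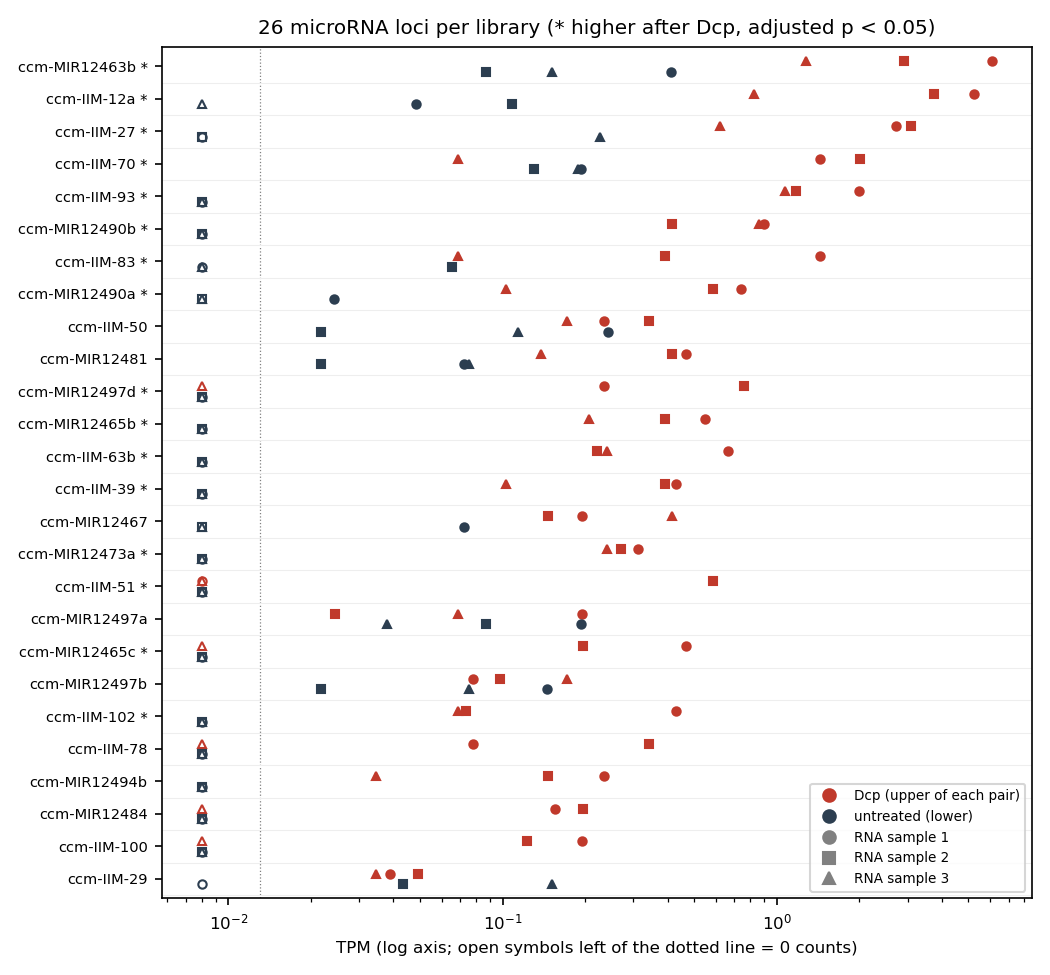
TPM of the 26 microRNA loci in each library on a log axis, Dcp in the upper line and untreated in the lower line of each pair, with 1 symbol per RNA sample and open symbols for 0 counts. Asterisks mark the 16 loci that rose, and Dcp library 3 (red triangles) is the lowest Dcp value in 20 of 26 loci.

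Dcp library 3 was the lowest Dcp library in 9 of 16 snRNA loci, 20 of 26 microRNA loci and 36 of 64 tRNA genes. Its microRNA total was 7.38 TPM, against 28.6 and 20.5 TPM in Dcp libraries 1 and 2. Its total of precursor tRNA was 28.5 TPM, against 45.6 and 33.2 TPM in Dcp libraries 1 and 2. Without that library 53 loci rose, namely 16 snRNA, 21 microRNA and 16 tRNA loci, and without Dcp library 1 14 rose, 10 snRNA, 4 microRNA and 0 tRNA loci. Without both libraries of RNA sample 2, 22 rose. Single calls also turned on other libraries. Without Dcp library 2 the calls of ccm-IIM-70, ccm-MIR12497d, scaffold16.tRNA2-iMetCAT, scaffold5.tRNA10-PheGAA and scaffold43.tRNA7-LeuCAA were lost (adjusted p = 0.0573 to 0.246). Without untreated library 2 those of ccm-IIM-70, ccm-IIM-51, ccm-MIR12465c, ccm-IIM-102 and scaffold43.tRNA7-LeuCAA were lost (adjusted p = 0.0553 to 0.0794). Without untreated library 1 that of scaffold159.tRNA7-MetCAT was lost (adjusted p = 0.0715), and without untreated library 3 that of ccm-IIM-102 (adjusted p = 0.053). Called in each alternative that gave a value were 10 snRNA loci and the microRNA loci ccm-MIR12463b, ccm-IIM-12a, ccm-IIM-93 and ccm-MIR12490b.

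Most tRNA genes did not pass the test after decapping. Of 64 tested genes, 6 rose and 0 fell, 9.38% against 34.9% of all tested loci, and 16 were higher at an unadjusted p under 0.05. The fitted log2 fold change was above 0 for 51 of the 64. In 19 genes Dcp exceeded untreated in all 3 RNA samples, and in 4 genes it did so in none. All 6 risers had few counts, 18 to 90 over the 6 libraries, and none was called with TMM or median-of-ratios scaling.

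Of these 6 genes, 2 had untreated counts. The arginine gene scaffold126.tRNA1-ArgCCT (1387349 to 1387443, plus strand) had 1.36, 0.735 and 0.483 TPM in Dcp libraries, against 0.0484, 0.196 and 0 TPM in untreated libraries. The groups did not overlap, and the log2 fold change was 3.24 (SE 0.966, adjusted p = 0.00457). The elongator methionine gene scaffold159.tRNA7-MetCAT (330659 to 330760, minus strand) had 0.974, 0.441 and 0.379 TPM in Dcp libraries, against 0, 0.0869 and 0.114 TPM in untreated libraries. Its log2 fold change was 3.15 (SE 1.03, adjusted p = 0.0104), again without overlap.

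The other 4 had 0 untreated counts. The gene scaffold16.tRNA2-iMetCAT (992447 to 992537, plus strand), of the initiator tRNA that starts translation, had 8, 34 and 0 Dcp counts and was at least 16.7-fold higher (adjusted p = 0.00107). Dcp library 2 held 34 of its 42 counts, and without it the adjusted p was 0.134. scaffold240.tRNA1-HisATG (239517 to 239614, minus strand) had 14, 14 and 0 Dcp counts and was at least 11.1-fold higher (adjusted p = 0.00356). Dcp library 3 was thus at 0 for both genes. scaffold5.tRNA10-PheGAA (582869 to 582961, minus strand) had 8, 19 and 1 Dcp counts, at least 11.1-fold more (adjusted p = 0.00409). scaffold43.tRNA7-LeuCAA (58965 to 59066, minus strand) had 7, 7 and 4 Dcp counts, at least 7.15-fold more (adjusted p = 0.0186; 0.0612 with the RNA sample as a block). The block in turn called scaffold34.tRNA3-GluTTC, a gene named for that reason, with 9, 18 and 4 Dcp counts and 5, 0 and 0 untreated counts (adjusted p = 0.0448; 0.0738 without the block).

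The 6 genes decode 5 amino acids, and other genes of the same types were not all called. Of 6 tested genes with the anticodon CAT, elongator and initiator together, 2 rose, and of 6 tested arginine genes 1 rose. A second initiator gene on scaffold 16, scaffold16.tRNA13-iMetCAT, is named here after its values were seen, with 34 counts in Dcp libraries and 17 in untreated libraries. None of the 6 aspartate, 6 glutamate, 6 glycine or 7 lysine genes tested was called. The same held for the 5 asparagine, 5 serine, 4 glutamine and 3 alanine genes tested. Over all tested tRNA genes 9.38% were called, beside 34.9% of all tested loci, and whether types differ was not tested. The median log2 ratio at bound was 1.34 for aspartate and −0.75 for glycine, beside 1.25 for all tRNA genes and 2.19 for all loci. The lowest ratio of all 106 loci was also glycine's: scaffold47.tRNA10-GlyGCC, chosen after its values were seen, had 1, 0 and 0 Dcp counts and 3, 7 and 0 untreated counts (ratio 0.119, interval 0.00275 to 0.838, adjusted p = 0.421).

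Summed over all 496 genes by type, including those under the minimum, 7 of 22 types (31.8%) had all Dcp libraries above all untreated ones. Initiator and elongator methionine were separate types, and a type named Sup, with 2 genes, had 0 TPM in all 6 libraries. The 7 types were arginine, glutamine, isoleucine, leucine, elongator methionine, proline and serine. Leucine had 1.29, 0.563 and 0.138 TPM in Dcp libraries, against 0.0726, 0 and 0 TPM in untreated libraries, over 46 genes. Serine had 2.14, 1.89 and 1.07 TPM in Dcp libraries, against 0.460, 0.391 and 0.492 TPM in untreated libraries, over 34 genes. Proline, by contrast, totalled only 0.114 ± 0.0098 TPM in Dcp libraries and 0.0242 ± 0.0419 TPM in untreated libraries (SD, n = 3 each). No gene of proline reached 10 counts.

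Alanine dominated the precursor pool through the single gene scaffold16.tRNA14-AlaTGC (2759656 to 2759755, minus strand). It had 18.5, 14.9 and 17.9 TPM in Dcp libraries, against 14.1, 7.65 and 15.02 TPM in untreated libraries. The groups overlapped, although Dcp was higher within each RNA sample, and the log2 fold change was 0.48 (SE 0.608, adjusted p = 0.621). Its sign turned to −0.17 with TMM and −0.69 with median-of-ratios scaling. This gene held 40.5, 45.0 and 62.8% of precursor tRNA counts in Dcp libraries, against 64.6, 58.3 and 68.3% in untreated libraries. Without it the ratio of class means was 2.77 in place of 1.88.

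The next most abundant genes had levels near 1 TPM or below, and besides scaffold126.tRNA1-ArgCCT none of them was called. The lysine gene scaffold21b.tRNA5-LysTTT (2692984 to 2693076, plus strand) had 0.896, 0.759 and 0.345 TPM in Dcp libraries, against 0.460, 0.521 and 0.189 TPM in untreated libraries. Its log2 fold change was 0.75 (SE 0.832, adjusted p = 0.544), and −0.085 with TMM and −0.79 with median-of-ratios scaling. The serine gene scaffold9.tRNA9-SerAGA (2215136 to 2215245, minus strand) had 1.01, 0.833 and 0.345 TPM in Dcp libraries, against 0.411, 0.152 and 0.341 TPM in untreated libraries (log2 fold change 1.28, SE 0.849, adjusted p = 0.248), and its sign also turned with median-of-ratios scaling, to −0.0080. The glutamine gene scaffold55.tRNA2-GlnTTG (1173330 to 1173415, plus strand) had 0.935, 0.367 and 0.862 TPM in Dcp libraries, against 0.242, 0.0435 and 0.378 TPM in untreated libraries (log2 fold change 1.72, SE 0.891, adjusted p = 0.109). All 3 genes exceeded untreated in each RNA sample, and all 3 overlapped between groups.

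The ends of tRNA precursors were measured as well, since each interval is a full-length transcript. Over the 64 tested genes, 95.0% of Dcp counts and 95.3% of untreated counts began at their gene's most frequent 5′ end. The most frequent ends were taken from the same 6 libraries together, which partly fixes these shares in genes with few counts. In 11 of the 64 genes there were 0 untreated counts, so the shares of the groups do not cover the same genes. Without the alanine gene the shares were 91.5% of Dcp counts and 91.6% of untreated counts. The 3′ ends were more varied: over the 64 genes 39.4% of Dcp counts and 39.3% of untreated counts ended at the most frequent 3′ end of their gene. Without the alanine gene the shares were 51.7% of Dcp counts and 65.1% of untreated counts, a difference that was not tested. Mean length, unlike these shares, was taken over all listed tRNA genes, including those under the count minimum. Without the alanine gene it was 87.0 ± 0.206 nt in Dcp libraries and 85.2 ± 0.990 nt in untreated libraries (SD, n = 3 each), a difference of 1.78 nt. The libraries did not overlap in this length, and the exact two-sided permutation p was 0.1, or 0.15 adjusted over 3 length comparisons. With the alanine gene included, the mean was 86.4 ± 0.272 nt in Dcp libraries and 85.9 ± 0.463 nt in untreated libraries. There the groups overlapped (exact two-sided permutation p = 0.2). The mix of genes also differed between the groups, and its part in these differences was not tested.

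In the alanine gene the length moved the other way. Its transcripts averaged 85.8 ± 0.0787 nt in Dcp libraries and 86.3 ± 0.185 nt in untreated libraries, a difference of −0.45 nt (exact two-sided permutation p = 0.1, 0.15 adjusted). They shared a 5′ end at 2759746 in 97.8% of Dcp counts and 97.0% of untreated counts, so the lengths differ at the 3′ end. The 88-nt form made up 19.6, 10.8 and 20.2% of the gene's counts in Dcp libraries, against 27.7, 28.7 and 23.9% in untreated libraries. This was the only one of the 8 most counted forms whose groups did not overlap, with an exact permutation p of 0.1, or 0.533 adjusted over the 8 forms. The 87-nt form, the most frequent, made up 29.1 ± 2.34% of counts in Dcp libraries and 27.3 ± 3.43% in untreated libraries.

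**Figure D5:**
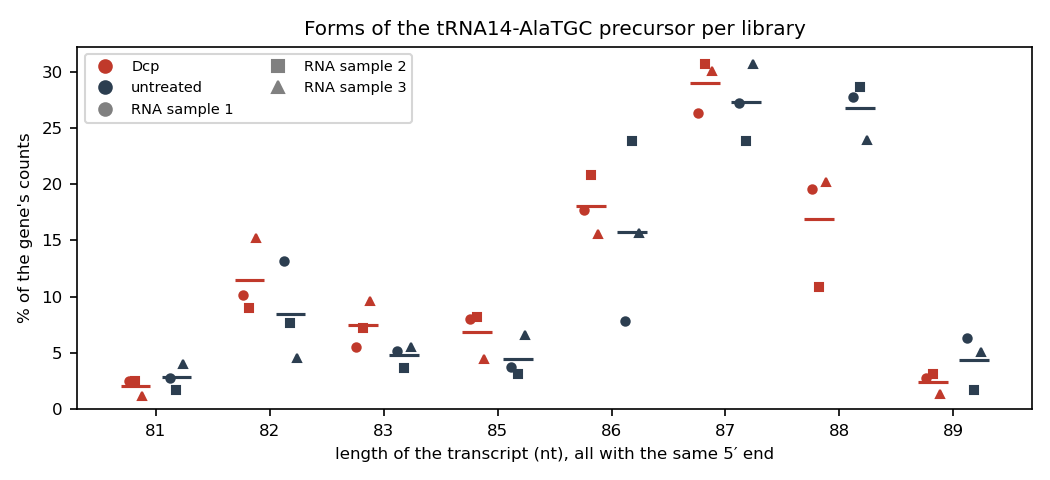
Share of the counts of scaffold16.tRNA14-AlaTGC in its 8 most counted forms with the shared 5′ end, by length, per library, with lines for group means and Dcp left of untreated. The 88-nt form averaged 16.9% in Dcp libraries and 26.8% in untreated libraries, and the other 7 forms overlapped between groups.

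Loci outside the 106 had few counts each. At the minimum itself, with exactly 10 counts, were 0 snRNA loci, 2 microRNA loci and 5 tRNA genes, and just under it, with 9 counts, were 1, 2 and 5. A further 324 loci had 0 counts in the 6 libraries. Together the 78 snRNA loci under the minimum held 35 counts in Dcp libraries and 0 in untreated libraries. The 432 tRNA genes under it summed to 5.71 ± 3.64 TPM in Dcp libraries and 1.32 ± 0.324 TPM in untreated libraries (SD, n = 3 each). The 100 microRNA loci under it summed to 3.08, 1.40 and 0.586 TPM in Dcp libraries, against 0.194, 0.0217 and 0.151 TPM in untreated libraries. In each class these sums did not overlap between groups.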

How the data were processed

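Full-length, stranded short RNAs from 3 RNA samples, each divided over the treatments, were compared in 3 Dcp and 3 untreated libraries. The deposited table gives raw counts per interval, per the file headers and the whole-number values. It also gives TPM values by the authors, which equalled each deposited count divided by 1 constant per library. Per the submitters' processing notes, the tools included Bowtie2, SAMtools, bedtools and cutadapt, with no version given. Rules for multi-mapping reads are not stated there. Coordinates count from 1 on scaffolds of assembly Ccam0.32, the prefix in the table. Sequences of the loci were not used here.

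Library totals were recovered as count over TPM. Counts were summed per tRNA gene, and 106 loci with at least 10 counts were fitted in edgeR 4.0.16 (R 4.3.3; quasi-likelihood, recovered totals as offsets, treatment only, two-sided, Benjamini-Hochberg adjusted p under 0.05). The procedure was tested on simulated counts with a common spread for all loci and upward changes only, a simpler setting than these data. Each SE is the absolute log2 fold change over the square root of F, not an edgeR estimate. Ratios are of pooled rates with 95% exact intervals. Loci with 0 untreated counts get a bound against 3 counts over the group. Class totals, class ratios and lengths were tested by exact permutation. Alternatives were DESeq2 1.42.0, other scalings, minimums and spreads, and left-out libraries.

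Per the labels, equal numbers mean the same RNA sample, so libraries are paired by number. As a check, their deviations from the group means correlated at 0.189, 0.107 and 0.139, against −0.124 to −0.0345 for other pairs. These correlations are weak. Deviations cancel out within a group, so the values for other pairs are not an independent reference. Named were every tested snRNA locus, every called tRNA gene and microRNA locus, and the 5 tRNA genes and 5 microRNA loci with the highest mean TPM. Members, lists and rules were chosen with earlier results of these data known.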

Additional observations from a re-analysis of the deposited data

Results flagged for a closer look

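Loci under 10 counts over the Dcp and untreated libraries held many counts in the RppH libraries, which are outside the main comparison. For 100 microRNA loci the summed level was 12.4, 8.73 and 21.4 TPM in RppH libraries 1 to 3, a mean of 14.2 TPM, beside 1.69 ± 1.27 TPM in Dcp libraries and 0.122 ± 0.0896 TPM in untreated libraries (SD, n = 3 each). For 432 tRNA genes it averaged 77.5 ± 17.0 TPM in RppH libraries, beside 5.71 ± 3.64 TPM in Dcp libraries and 1.32 ± 0.324 TPM in untreated libraries. At least 10 counts over the RppH libraries were reached by 35 of these microRNA loci and 181 of these tRNA genes. The loci were chosen for low counts in the Dcp and untreated libraries, which partly fixes this contrast, and it was not tested.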

How the results depend on the processing

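No alternative called a locus lower at an adjusted p under 0.05. At an unadjusted p under 0.05, 3 loci were lower with median-of-ratios scaling (31 higher) and 1 without Dcp library 3 (55 higher). Against 37 loci (16 microRNA, 6 tRNA) in the fit as reported, TMM and median-of-ratios scaling each called 23 (10 microRNA, 0 tRNA), and all 9 libraries sharing the spread called 17 tRNA genes. Leaving out an RNA sample or a library gave 14 to 53 loci in all, 4 to 21 microRNA loci and 0 to 16 tRNA genes. snRNA calls stayed between 10 and 16. With the RNA sample as a replicate block 33 loci were called, 32 of them shared, and class totals kept their direction (688, 15.6 and 1.90 for snRNA, microRNA and tRNA; smallest p 0.25). The block changed no other call than those given with the loci. Log2 fold changes reversed to −0.17 (TMM) and −0.69 (median of ratios) for scaffold16.tRNA14-AlaTGC, −0.085 and −0.79 for scaffold21b.tRNA5-LysTTT, and −0.0080 (median of ratios) for scaffold9.tRNA9-SerAGA, none called. The cause was not tested. DESeq2, no minimum, a minimum of 30 counts and single pre-tRNA intervals gave 33, 33, 31 and 35 calls. ccm-IIM-51 had no counts left, and no value, without replicate 2. Untreated libraries hold 630 to 1011 listed counts, so the 36 loci with 0 untreated counts give lower bounds only.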
